A study of Mus musculus with 4 samples.

Results

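The Forkhead genes of the embryonic mouse forelimb are described here in pools with and without Shox2. They were taken as all probe sets whose gene symbol is Fox, 1 letter from a to s and a number, which gave 43 genes of the 23185 named on the array. The other 4 symbols that start with Fox, the opposite-strand RNAs Foxd2os and Foxl2os and the oxidoreductase genes Foxred1 and Foxred2, are not Forkhead factors and were left out. Forelimbs were dissected from C57BL/6 embryos at stage E11.5, and 2 arrays of wild-type limbs were set against 2 arrays of Shox2 knockout limbs, all without further treatment. Each array held RNA of 3 to 4 pooled embryos or forelimbs per the labels, taken from 2 pregnancies per the series' design text. The 2 arrays of each genotype carry the numbers 48 and 50 in their titles, and nothing says what these numbers mark. The sources used here do not describe how the knockout allele was built. Each array is a separate pool, so p-values measure only the spread between pools.

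Forkhead factors bind DNA through a winged-helix domain, and the letter in the name marks a subfamily with a related domain. FOXA proteins open closed chromatin in endoderm, and FOXC proteins act in mesoderm, vessels and the skeleton. FOXO proteins are kept out of the nucleus by insulin and AKT signalling. FOXM1 drives the genes of cell division, and FOXP proteins repress transcription as dimers. In limb mesenchyme FOXC and FOXP factors are known for roles in the forming cartilage and bone, while Shox2 is a homeodomain factor needed for the proximal limb skeleton.

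Shox2, the check of the labels, read 10.57 and 10.37 in wild-type pools against 9.58 and 8.88 in knockout pools (log2 expression, arrays 48 and 50). The knockout was lower, at -1.24 ± 0.21 on the log2 scale (SE over 2 pools a genotype), without being called (limma, adjusted p = 0.322), and where its probes lie relative to the deletion was not known. The genes called were 3 Y-linked ones, Eif2s3y, Uty and Kdm5d, all higher in the knockout. A list of Y-linked genes and Xist had 4 tested, these 3 higher and 1 lower, at -1.01. That lower gene also had an unadjusted p under 0.05 in limma. Eif2s3y read 5.37 and 5.26 in wild-type pools, near the lowest array value of 5.04, against 9.56 and 9.65 in knockout pools. The pools thus also differed in Y-linked signal, and embryo sex cannot be told apart from genotype in any comparison here. The forelimb T-box gene Tbx5 stood at 12.25 to 12.48 over the 4 arrays, while of the 4 hindlimb genes Pitx1 and Hoxc10 were too dim to be tested. The hindlimb T-box gene Tbx4 read 6.76 and 6.77 in wild-type pools against 7.42 and 7.18 in knockout pools, a difference of 0.54 ± 0.10 (limma, adjusted p = 0.322), and Isl1 read 6.39 to 6.51. Among marker lists, limb mesenchyme had higher values for 11 of 14 genes in the knockout (median log2 difference 0.26) and endothelium lower values for 11 of 14 (median -0.20). The ectoderm and ridge list was higher for 10 of 12 (0.089), erythroid genes lower for 7 of 9 (-0.10) and neuronal genes higher for 5 of 5 tested (0.145, with 7 of 12 too dim). Cartilage markers were lower for 9 of 13 tested (-0.031) and smooth muscle and pericyte markers for 6 of 9 (-0.047). Skeletal muscle markers were higher for 7 of 12 (0.088) and macrophage markers for 4 of 8 (-0.013). In such bulk pools fewer cells of a type and less RNA per cell cannot be told apart.

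Of the 43 Forkhead genes, 15 were clearly measured in the forelimb and 28 lay near the bottom of the array's range. Mean log2 levels over the 4 arrays fell into 2 sets, with nothing between 6.20 (Foxd3) and 7.48 (Foxc2). This gap was chosen as a dividing line after the values were seen. The set above it held both FoxC genes, Foxj2, Foxj3, both FoxK genes, Foxm1, Foxn2, Foxn3, Foxo1, Foxo3, Foxo4, Foxp1, Foxp2 and Foxp4, which stood at percentiles 69.1 to 96.9 of all probe sets. The 28 others averaged between 5.30 and 6.20, on arrays whose lowest value was 5.04 and whose median was 5.89. Probe sets differ in how brightly they report a transcript, so these levels describe each probe set and do not rank the amounts of RNA. Genes had to average at least 5.60, percentile 40 of all probe sets, to be tested for a genotype difference. That left 29 Forkhead genes, among them 14 below the gap, and set aside 14. Foxn1 (5.61) was just inside this limit and Foxo6 (5.60) just outside.

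**Figure D1:**
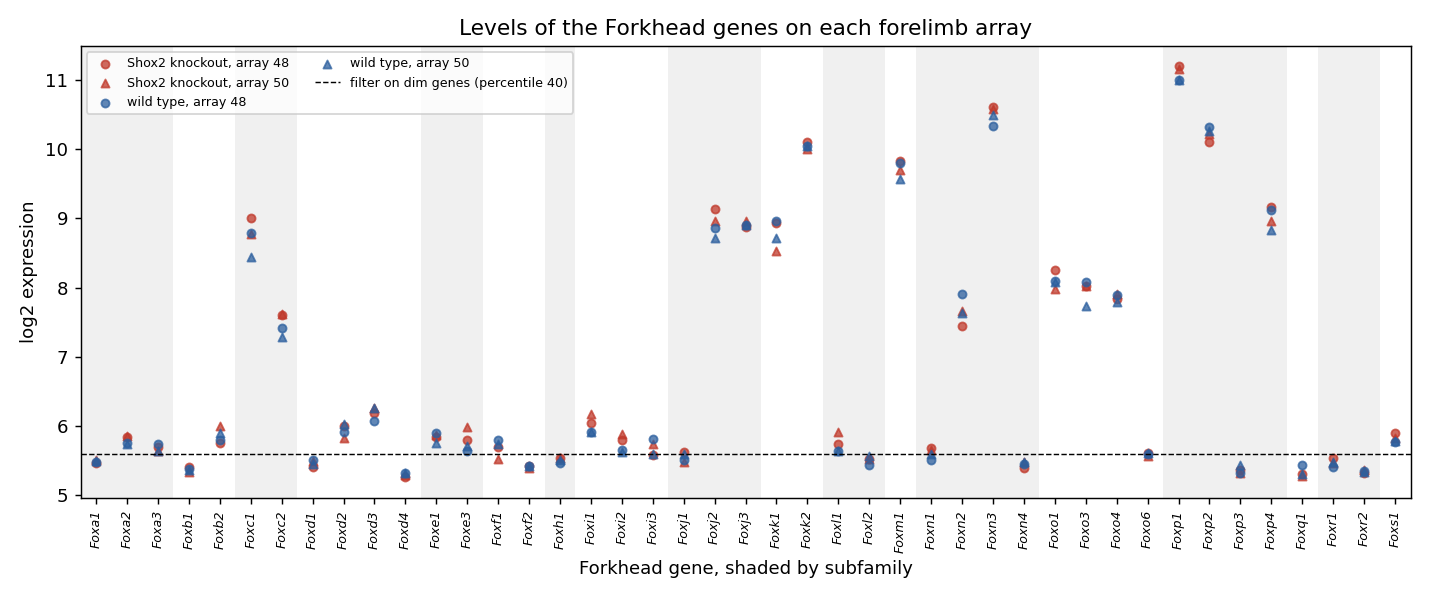
Log2 expression (vertical axis) of the 43 Forkhead genes on each of the 4 arrays, with genes on the horizontal axis and alternate subfamilies shaded. Red symbols are Shox2 knockout, blue are wild type, circles are arrays numbered 48, triangles are arrays numbered 50, and the dashed line is the limit for testing at 5.60. The 15 genes above the gap have means from 7.48 to 11.08, and the other 28 crowd around the line.

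The start sites of the members gave a second description. The RefSeq promoter table for GRCm38.p6 held 28 of the 43 genes, and the 250 bases upstream of each start were read. CpG dinucleotides, which are dense at the starts of many broadly expressed genes, numbered 5 to 48 (median 31.0) in the 9 genes above the gap and 3 to 24 (median 15.0) in the 19 below it, taking each gene's richest window. The median over all 27025 genes of the table was 6.0. At least 20 CpGs, a limit chosen after the values were seen, were present in 8 of the 9 genes above the gap and 6 of the 19 below, against 19.7% of all genes; Foxn3 was the exception above the gap. The Forkhead core motif TGTTTAC, searched on both strands, was present in 1 of 33 member windows, that of Foxa1, and in 3.17% of all windows. TATAAA, on both strands, was present in windows of Foxa2, Foxa3 and Foxp3 and of none of the 9 genes above the gap, against 12.4% of all windows. GGGCGG, on both strands, was present in 23 of the 33 member windows, against 32.7% of all windows. Its genes were 8 of the 9 above the gap and 13 of the 19 below. The windows of Foxj2 and Foxi2, which had unadjusted p-values under 0.05 as described further on, and of Foxc1 show how unlike these starts are. They are given from 5′ to 3′ on the plus strand with CpGs in capitals.
Foxj2, chr6:122819934-122820183, with 36 CpGs and 80.4% G and C: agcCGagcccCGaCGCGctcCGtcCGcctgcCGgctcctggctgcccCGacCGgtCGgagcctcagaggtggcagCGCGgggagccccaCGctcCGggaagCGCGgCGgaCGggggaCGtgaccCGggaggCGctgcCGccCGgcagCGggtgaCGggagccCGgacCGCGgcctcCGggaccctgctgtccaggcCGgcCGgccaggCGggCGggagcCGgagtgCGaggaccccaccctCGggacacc
Foxc1, chr13:31806396-31806645, with 29 CpGs and 70.8% G and C: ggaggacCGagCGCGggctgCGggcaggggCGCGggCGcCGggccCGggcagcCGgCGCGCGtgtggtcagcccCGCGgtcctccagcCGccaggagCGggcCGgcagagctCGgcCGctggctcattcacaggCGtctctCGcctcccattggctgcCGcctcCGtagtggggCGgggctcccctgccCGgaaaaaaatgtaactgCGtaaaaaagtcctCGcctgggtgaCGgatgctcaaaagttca
Foxi2, chr7:135410117-135410366, with 3 CpGs and 56.8% G and C: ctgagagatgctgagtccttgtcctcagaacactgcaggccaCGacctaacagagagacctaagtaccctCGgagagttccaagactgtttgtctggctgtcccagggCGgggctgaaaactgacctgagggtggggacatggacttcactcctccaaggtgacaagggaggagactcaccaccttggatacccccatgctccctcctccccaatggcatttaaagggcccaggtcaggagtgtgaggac
The Foxj2 and Foxc1 windows are rich in CpGs, and that of Foxi2, a gene near the bottom of the range, is almost free of them.

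The FoxC genes, regulators of mesoderm and skeletal mesenchyme, gave the highest differences of any tested subfamily with more than 1 member. Foxc2 read 7.41 and 7.29 in wild-type pools against 7.61 and 7.62 in knockout pools (log2 expression, arrays 48 and 50). Both knockout pools were above both wild-type pools. The difference of 0.26 ± 0.084 (log2, SE, n = 2 pools per genotype), a 1.20-fold higher level, had the smallest unadjusted p of the family, 0.0184 in limma's fit over all genes, and did not pass (limma, adjusted p = 0.405). Foxc1 read 8.78 and 8.45 in wild-type pools against 9.001 and 8.77 in knockout pools. Its difference was of the same size, 0.27 ± 0.14, but the groups overlapped because array 50 was lower than array 48 in both genotypes (limma, adjusted p = 0.553). Within a number, the knockout was higher for both genes: by 0.22 (48) and 0.32 (50) for Foxc1 and by 0.19 and 0.33 for Foxc2. The difference of Foxc1 was 0.10 without wild-type array 50, 0.16 without knockout array 48 and 0.44 without wild-type array 48. The limb mesenchyme markers had higher values in the same pools (8 of 14 at an unadjusted p under 0.05, all higher; log2 of their summed levels 14.82 to 14.93 in knockout pools and 14.77 to 14.78 in wild-type pools). Endothelial markers, from cells that also express FoxC genes, had lower ones (4 of 14 at an unadjusted p under 0.05, all lower; 12.60 to 12.66 and 12.73 to 12.77), with no marker too dim. The part of either cell type in the FoxC values was not tested.

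Both FoxC genes lie beside other Forkhead genes that were near the bottom of the range. In the GRCm38.p6 gene table Foxq1, Foxf2 and Foxc1 follow each other on chromosome 13 with no coding gene between them. On chromosome 8 Foxf1 and Foxc2 are separated by 1 coding gene, Mthfsd, and Foxl1 follows directly. Foxf1 and Foxf2, genes of hedgehog-responsive mesenchyme around the gut, averaged 5.69 and 5.42, and Foxq1 averaged 5.34. Foxf1 read 5.79 and 5.75 in wild-type pools against 5.71 and 5.52 in knockout pools, a difference of -0.16 ± 0.092 opposite in sign to that of its neighbours (limma, adjusted p = 0.611). Foxl1 read 5.64 and 5.65 in wild-type pools against 5.74 and 5.92 in knockout pools, a difference of 0.19 ± 0.090 (limma, adjusted p = 0.538). The genotypes did not overlap for either gene, and readings this close to the floor are compressed.

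In the FoxP subfamily 3 of 4 genes were above the gap, and their differences did not share a sign. Foxp1, a repressor with roles in blood, heart and motor neurons, read 11.19 and 11.16 in the knockout and 10.99 on both wild-type arrays. The knockout pools were above the wild-type pools by 0.18 ± 0.077 (log2, SE), with arrays of a genotype within 0.036 of each other (limma, adjusted p = 0.496, unadjusted p = 0.0519). Foxp2, its close relative known from the brain circuits of speech, had the opposite pattern, with 10.31 and 10.26 in wild-type pools against 10.11 and 10.22 in knockout pools. That difference of -0.12 ± 0.084 did not pass either (limma, adjusted p = 0.658), and its groups did not overlap. Foxp4 differed by 0.088 ± 0.12, less than the 0.20 (knockout) and 0.29 (wild type) between arrays of one genotype. Foxp3, the factor of regulatory T cells, averaged 5.36 and was not tested. Of 8 genes for corepressor partners of FOXP proteins, 6 were higher and 2 lower in the knockout (median log2 difference 0.032). Limma called 0, and 1 reached an unadjusted p under 0.05, the histone deacetylase gene Hdac1, at 0.30 ± 0.10.

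FoxO genes, the targets of insulin and AKT signalling, had small differences with wide intervals. Foxo1 read 8.09 and 8.08 in wild-type pools against 8.25 and 7.98 in knockout pools, so both knockout arrays lay outside the narrow wild-type pair, on opposite sides. Its difference was 0.027 ± 0.11, with a 95% confidence interval from -0.23 to 0.28. Foxo3 differed by 0.12 ± 0.12 (95% confidence interval -0.17 to 0.41), and 1 wild-type array, number 50, read 7.74 where the other 3 arrays lay between 8.03 and 8.08. Foxo4 differed by 0.027 ± 0.084. Foxo6, a FoxO gene known from the brain, averaged 5.60. Among 19 tested genes of the FOXO axis, such as the kinases upstream of FOXO and its stress and cell cycle targets, 11 were higher and 8 lower in the knockout (median log2 difference 0.0075). Limma called 0 of them, and 0 reached an unadjusted p under 0.05.

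Foxm1 and the FoxK genes, which act in dividing and metabolically active cells, did not separate the genotypes. Foxm1 read 9.81 and 9.57 in wild-type pools against 9.83 and 9.70 in knockout pools, a difference of 0.073 ± 0.11 against 0.13 (knockout) and 0.24 (wild type) between arrays of one genotype. Of 16 genes on a list of cell division genes tied to FOXM1, 11 were higher and 5 lower in the knockout (median log2 difference 0.064). Limma called 0, and 1 reached an unadjusted p under 0.05, the cell cycle regulator gene Mybl2, at 0.28 ± 0.11. Foxk1, a factor of muscle progenitors, read 8.96 and 8.72 in wild-type pools against 8.94 and 8.53 in knockout pools, so its arrays ordered by number and not by genotype. Foxk2 read 10.04 on both wild-type arrays, between the 10.10 and 10.002 of the knockout. Its difference of 0.0085 ± 0.082 (95% confidence interval -0.19 to 0.20) was the smallest in size among the tested Forkhead genes.

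Within the FoxJ subfamily the differences were unlike in size but all positive, and within FoxN they were unlike in size and sign. Foxj2, a widely expressed activator, read 8.86 and 8.72 in wild-type pools against 9.13 and 8.96 in knockout pools. The knockout was higher by 0.26 ± 0.098, by 0.27 between arrays 48 and 0.24 between arrays 50, and the groups did not overlap (limma, adjusted p = 0.454, unadjusted p = 0.0366). Without knockout array 48 it was 0.17. Its relative Foxj3 differed by 0.020 ± 0.081, and Foxj1, the master gene of motile cilia, averaged 5.55 and was not tested. Foxn3, a repressor linked to cell cycle checkpoints, read 10.34 and 10.49 in wild-type pools against 10.61 and 10.58 in knockout pools, a difference of 0.18 ± 0.088 without overlap (limma, adjusted p = 0.538), and of 0.11 without wild-type array 48. Foxn2 had the lowest difference of the family, -0.21 ± 0.12, and it came from 1 pair: 7.45 against 7.91 between arrays 48, but 7.66 against 7.63 between arrays 50. Foxn1, the gene of thymus and hair epithelium, differed by 0.12 ± 0.081 at a mean of 5.61, also without overlap, and Foxn4, of retina and spinal cord, was not tested.

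**Figure D2:**
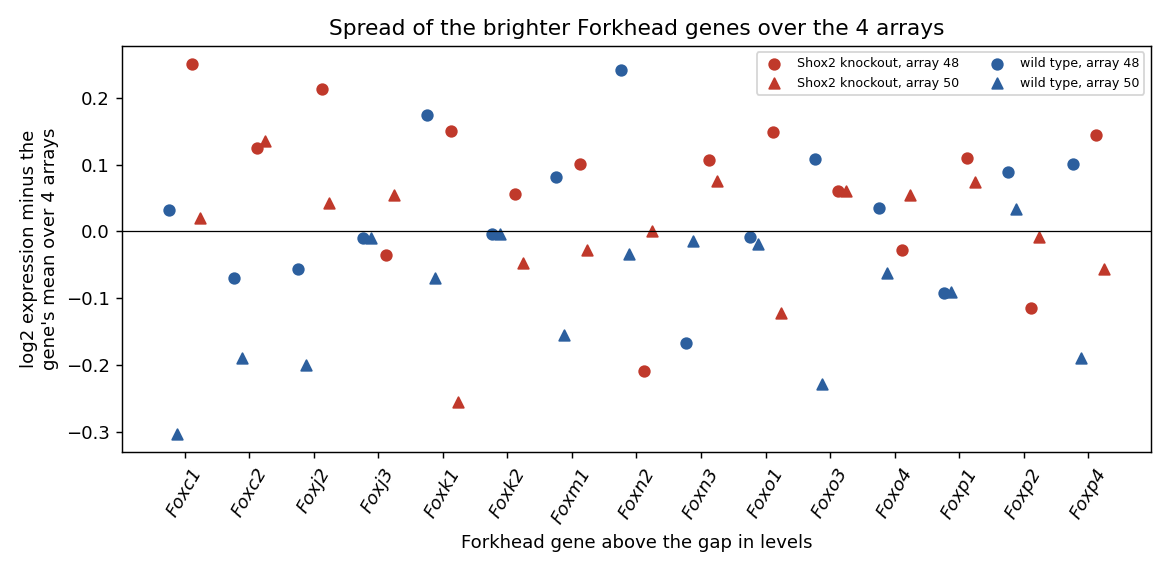
Log2 expression of the 15 Forkhead genes above the gap on each array, relative to the gene's own mean over the 4 arrays (vertical axis), with symbols as in the plot of levels. Foxc2, Foxj2, Foxn3 and Foxp1 have both knockout arrays above both wild-type arrays and Foxp2 has both below. For Foxc1, Foxk1, Foxm1, Foxo1 and Foxp4 both circles lie above both triangles.

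Subfamilies tied to other organs made up most of the dim set. FoxA genes of endoderm and FoxB genes of the neural tube averaged 5.37 to 5.87, and Foxa2 read 5.85 and 5.86 in the knockout and 5.75 on both wild-type arrays (difference 0.10 ± 0.077; limma, adjusted p = 0.688). FoxD genes ranged from 5.30 (Foxd4) to 6.20 (Foxd3). Foxd3, a neural crest factor, read 6.08 and 6.26 in wild-type pools against 6.19 and 6.27 in knockout pools, and the groups overlapped. Other neural crest and Schwann cell markers had 1 higher and 5 lower values of 6 tested, with a median of -0.17 that was -0.31 between arrays 48 and 0.033 between arrays 50. Foxd1 averaged 5.47 and was not tested, and Foxd2 differed by -0.058 ± 0.097. Of the FoxE genes, Foxe1, of the thyroid, read 5.90 and 5.75 in wild-type pools against 5.85 and 5.87 in knockout pools, and Foxe3, of the lens, differed by 0.22 ± 0.094 at a mean of 5.78. Foxs1, known from pericytes and sensory neurons, differed by 0.092 ± 0.079, and Foxb2 by 0.030 ± 0.11. Foxa3, of the liver, differed by -0.020 ± 0.083. Foxh1, a partner of SMAD proteins, Foxr1 and Foxr2 averaged 5.34 to 5.52 and were not tested, as were Foxa1, Foxb1 and Foxl2.

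FoxI genes, known from ectoderm and inner ear, included the third member with an unadjusted p under 0.05. Foxi2 read 5.65 and 5.62 in wild-type pools against 5.80 and 5.89 in knockout pools, a difference of 0.20 ± 0.081 (limma, adjusted p = 0.471, unadjusted p = 0.0419). Foxi1 read 6.04 and 6.18 in the knockout and 5.92 on both wild-type arrays, a difference of 0.20 ± 0.086 (limma, adjusted p = 0.505), and of 0.13 without knockout array 50. Foxi3 differed by -0.044 ± 0.10, with opposite signs between arrays 48 (-0.23) and arrays 50 (0.14). All 3 stood at percentiles 43.8 to 52.5 of all probe sets, where most probe sets lie close to the floor. In the same pools the ectoderm and ridge markers had 2 of 12 higher and 1 lower at an unadjusted p under 0.05, with log2 summed levels of 11.32 to 11.36 in knockout pools and 11.18 to 11.30 in wild-type pools; Fgf8 and Sp8 were too dim. The part of ectoderm in the FoxI values was not tested.

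Over the family, 0 of the 29 tested Forkhead genes passed limma over all genes, where 0.0213% of the 14095 tested genes passed, all of them higher; the smallest adjusted p was 0.405. At an unadjusted p under 0.05 there were 3, or 10.3%, beside 10.2% of all tested genes, a share near the background. All 3, Foxc2, Foxi2 and Foxj2, were higher in the knockout, where 5.19% of tested genes were. Which members reached this level changed with the fit. With an intensity trend they were Foxe3, Foxi2, Foxj2, Foxl1, Foxn3 and Foxp1, and Foxc2 did not reach it (limma, unadjusted p = 0.0532). With an array left out the difference of Foxc2 ran from 0.20 to 0.32. The genotypes did not overlap in 13 of 29 (44.8%), beside 42% of tested genes. Of these, 11 were higher, with 22.1% as background, and 2 were lower, with 19.9%.

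**Figure D3:**
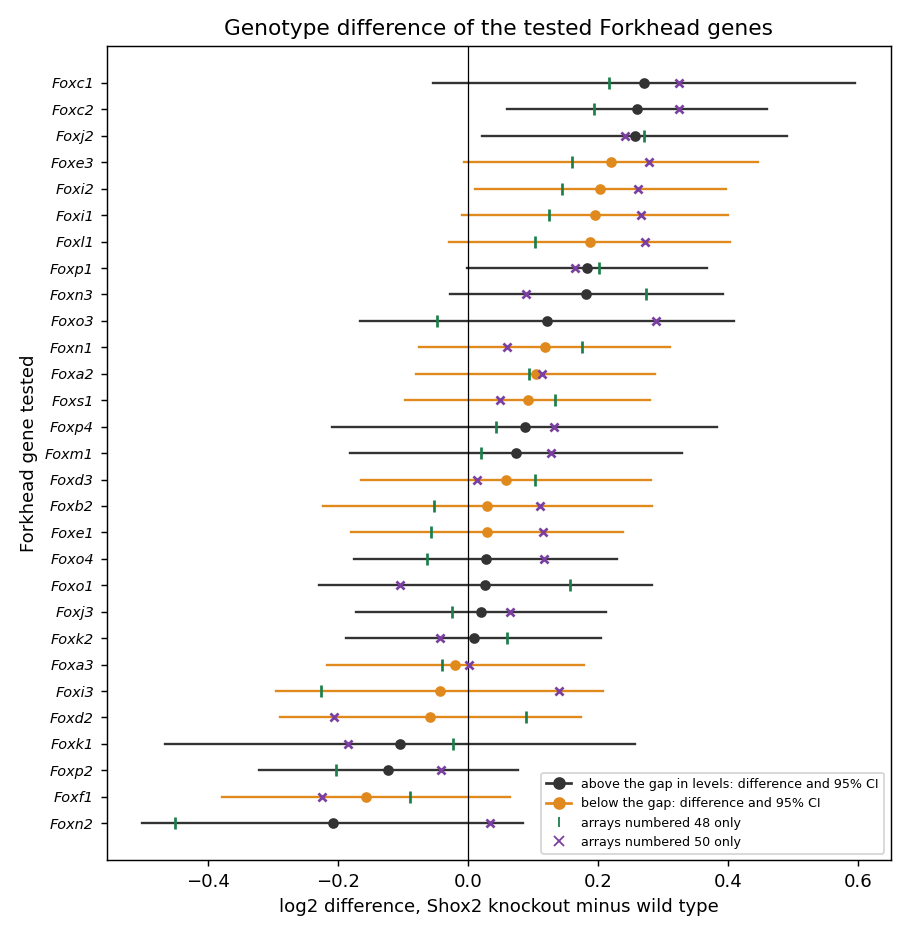
Log2 difference between Shox2 knockout and wild type (horizontal axis) of the 29 tested Forkhead genes (vertical axis), with 95% confidence intervals from limma. Black genes lie above the gap in levels and orange ones below it, and green bars and purple crosses give the difference within arrays numbered 48 and 50. The intervals of Foxc2, Foxj2 and Foxi2 exclude 0 without correction for the number of genes tested, and Foxn2 has its pairs farthest apart.

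The signs leaned to one side, by small amounts. Of the 29 tested members, 22 had higher and 7 lower values in the knockout, where 49.5% of all tested genes were higher and 50.4% lower. The median log2 difference was 0.074, against -0.00098 over all tested genes. Among the 15 genes above the gap 12 were higher, with the same median of 0.074, and of all 43 members 27 were higher and 16 lower, with a median of 0.027. The member median was 0.089 between arrays 48 and 0.11 between arrays 50. Both numbers gave the same sign for 18 of the 29 (62.1%), close to the 63.1% of all tested genes. The size of the lean varied with the array left out: the median ran from 0.022 without wild-type array 50 to 0.10 without knockout array 50. The median absolute difference was 0.10 for the 29 members and 0.083 for all tested genes, and the largest, that of Foxc1, was 0.27. For the 15 genes above the gap it was 0.121, beside 0.0754 for all tested genes at least as bright as the dimmest of them. Arrays of the same genotype differed by a median of 0.10 for the same 29 genes, and the genotype difference exceeded both of these within-genotype differences for 12 of them (41.4%), beside 29.4% of all tested genes. With 2 pools per genotype a standard error of 0.077 to 0.15 was reached, so differences of this size could not be separated from the spread between pools.

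**Figure D4:**
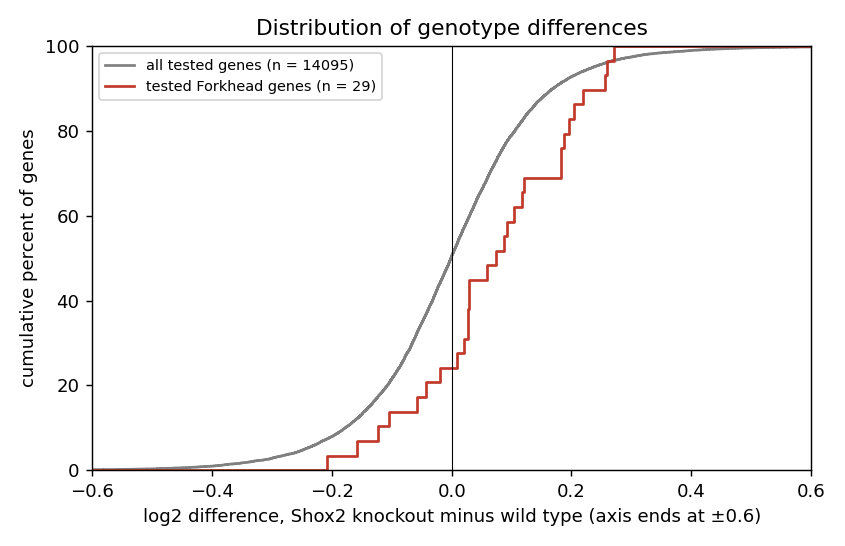
Cumulative percent of genes (vertical axis) at or below each log2 difference between Shox2 knockout and wild type (horizontal axis, shown between -0.6 and 0.6). The red line of the 29 tested Forkhead genes runs to the right of the grey line of all 14095 tested genes over most of its course and ends at 0.27; its median is 0.074 and that of all tested genes is -0.00098.

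Hedgehog pathway genes, which act upstream of FoxF and FoxL1 genes in other organs, showed no common direction. Of 14 tested, 8 were higher and 6 lower in the knockout (median log2 difference 0.022). Limma called 0, and 1 reached an unadjusted p under 0.05, the cartilage signal Ihh, at 0.48 ± 0.14. Shh, which averaged 5.62 and so lay near the floor, differed by 0.18 ± 0.089. The hedgehog receptor gene Ptch1, at a mean of 10.03, differed by -0.14 ± 0.092.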

How the data were processed

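The authors deposited 1 table of log2 expression values for 25206 probe sets on 4 arrays, 2 knockout and 2 wild type. Per the labels' protocols, pooled limbs gave TRIzol RNA and biotin-labelled cRNA by the Affymetrix procedure; the array platform, background correction and probe summarisation are not named in the sources. Sorted, 3 arrays held the same values and knockout array 48 lay within 0.00171 of them, as after quantile normalization, which would hide any shift common to most genes. Symbols came from the platform annotation (23185 probe sets with 1 gene, 0 with several, 2021 unnamed), and 0 changed through Entrez Gene. Of the 43 members, 43 matched the RefSeq gene table.

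Named genes averaging at or above percentile 40 were fitted with limma 3.58.1 in R 4.3.3 (lmFit and eBayes, no covariate, two-sided), with Benjamini-Hochberg adjustment over all 14095 and a threshold of 0.05. SEs are moderated. Every tested member is named. Values per array go to members with an unadjusted p under 0.05, or a preset fold without overlap (0 more members), and to the brightest of each subfamily with 2 or more tested; those of other members were added after their values were seen. From each marker or pathway list, at most 3 genes with the smallest p are named. Members and lists were chosen with earlier results of these data known. On simulated data of 14095 genes, 10 runs recovered 96.9% of genes changed by 1 log2 unit. The simulated noise was independent between arrays and had no array-number effect. This share therefore does not carry over to the real arrays, where Shox2 at -1.24 was not called. Alternatives were other filters, normalizations and variance models, unnamed probe sets, an array-number block and each array left out. The number of arrays limits the precision. Figures used matplotlib 3.10.9 in Python 3.11.15.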

Additional observations from a re-analysis of the deposited data

How the results depend on the processing

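In limma, 0 Forkhead genes passed under any of the 12 alternatives (smallest adjusted p 0.10 to 0.772), and at an unadjusted p under 0.05 there were 1 to 9. That count was 6 without a filter (14% of members, 9.51% of all genes), 6 with an intensity trend (20.7% and 10.1%), 9 with the array number as a block (31% and 18.6%), and 1 to 4 with an array left out. Without a filter 43 members entered, and their median was 0.0266. With an array left out the median ran from 0.0217 to 0.101 and the members without overlap from 20 to 22, since a lone array overlaps less often; with the filter at percentile 60 only 5 were without overlap, as 15 members were tested. Calls over all genes were 4 to 5 with an array left out. The sources do not say what the array number marks, and the main fit did not use it. Deviations from the group means correlated at 0.366 between arrays of the same number. A block for the number raised the calls over all genes from 3 to 382 while calling 0 Forkhead genes, and the cause was not tested. Of 139 differences of single members under the alternatives, 135 kept their sign and the 4 others turned, all with an array left out: Foxk2 (-0.043 to 0.060), Foxo1 (-0.109 to 0.163), Foxd3 (-0.028 to 0.146) and Foxe1 (-0.047 to 0.105). A lone array was assumed to vary like the other genotype. Values near the floor are compressed.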
